A study of Mus musculus with 2 samples.

Results

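The genes described are 8 that encode the killing machinery of cytotoxic lymphocytes: Gzma, Gzmb, Gzmk, Gzmm, Prf1, Nkg7, Ctsw and Cst7. They were chosen by name, 8 of the 31053 genes listed in each matrix, and all 8 were detected in both libraries. Their raw counts were read as UMIs (unique molecular identifiers, 1 per captured transcript) in barcodes with 200 to 6000 genes and under 10% mitochondrial UMIs. These cells were divided into NK cells, CD8 T cells, other T cells and the remaining classes of blood.

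Natural killer (NK) cells and CD8 T cells kill infected or transformed cells by releasing lysosome-related granules into the contact with the target. Perforin, encoded by Prf1, forms pores in the target membrane, and the granzymes are serine proteases that enter through them. Nkg7 encodes a protein of the granule membrane, Ctsw encodes cathepsin W, a cysteine protease of NK and cytotoxic T cells, and Cst7 encodes cystatin F, an inhibitor of the cathepsins that process granzymes.

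The study compared blood of male db/db mice with that of male wt mice, both of strain C57BLKs/J and aged 21 weeks. db/db mice have a mutated leptin receptor gene, Lepr, and become obese and diabetic. Per the labels, 3 mice and 200 µl of blood stood behind each group, red cells were lysed, and 10x Genomics 3′ libraries were made. With 1 library per genotype, and the mouse of origin of each cell unknown, no test was made, and the 95% intervals given with the values reflect counting error alone. The filters left 6109 db/db cells and 5727 wt cells, from 19912 and 16700 barcodes. NK-like cells numbered 56 in the db/db library and 102 in the wt library, with a median of 2673 and 2813 UMIs. CD8 T cells numbered 224 in db/db and 265 in wt, with 4129 and 4569 UMIs, and other T cells 305 in db/db and 452 in wt, with 2526 and 3129 UMIs. None of the 8 genes was used to cluster or to name the cells. Of the NK marker genes, Ncr1, an activating receptor, had a UMI in 82.1% of the db/db NK cells and 82.4% of the wt NK cells, Klrb1c in 82.1% and 55.9%, and Eomes in 35.7% and 59.8%. The T cell receptor gene Cd3e had 0 UMIs in db/db and 3 in wt NK cells and Cd8a had 0 in both, while Trbc2 had a UMI in 25% of db/db and 26.5% of wt NK cells. In the CD8 class, Cd8b1 had a UMI in 88.8% of the db/db cells and 83.4% of the wt cells, and Cd4 had 0 UMIs in both libraries. Other T cells, in which Cd4 was seen in 29.8% of db/db and 43.8% of wt cells, were led by Trbc2, Lef1 and Il7r. Of the 91 barcodes found in both libraries, 11 passed the filters in both. Among the db/db cells with these 11, 0 were NK cells, 0 were CD8 T cells and 1 was an other T cell.

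On GRCm38 with the GENCODE M21 annotation the 8 genes lie on 6 chromosomes. Gzma (ENSMUSG00000023132, chr13:113093825-113100981, minus strand) and Gzmk (ENSMUSG00000042385, chr13:113171608-113225908, minus strand) are 70626 bases apart with 3 annotated genes between them. Gzmb is at chr14:56258838-56262260 on the minus strand, Gzmm at chr10:79689020-79695261 and Prf1 at chr10:61297833-61304680, both on the plus strand. Nkg7 is at chr7:43437073-43438249 and Cst7 at chr2:150570415-150578944, both on the plus strand, and Ctsw at chr19:5465043-5468507 on the minus strand. Gzmk overlaps Esm1 and Ctsw overlaps Fibp, each on the opposite strand, so their counts are uncertain to the extent that reads of the partner could have been counted for them. The 250 bases before the RefSeq start site are shown for the most abundant granzyme gene, its chromosomal neighbour with another distribution, and Gzmb. These windows, on GRCm38.p6, are all read on the minus strand (chr13:113100982-113101231, chr13:113180966-113181215 and chr14:56262335-56262584) and all lie outside the exons of the genes. The Gzmk window lies inside the GENCODE span of Gzmk given above, so the RefSeq start used here is not the outer end of that span. Capitals mark the core letters of RUNX sites (TGTGGT or ACCACA) and of T-box sites (GGTGTGA or TCACACC), families that include known regulators of the cytotoxic programme.
Gzma: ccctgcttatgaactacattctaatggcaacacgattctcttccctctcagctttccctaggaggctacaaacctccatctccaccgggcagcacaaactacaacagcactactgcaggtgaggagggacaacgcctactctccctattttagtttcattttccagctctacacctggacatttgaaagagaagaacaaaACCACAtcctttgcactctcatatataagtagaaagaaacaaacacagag
Gzmk: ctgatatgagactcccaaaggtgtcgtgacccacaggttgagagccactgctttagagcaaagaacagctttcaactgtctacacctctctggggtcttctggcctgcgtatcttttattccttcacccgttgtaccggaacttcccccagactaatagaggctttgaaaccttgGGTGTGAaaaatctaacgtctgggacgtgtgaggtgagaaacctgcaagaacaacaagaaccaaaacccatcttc
Gzmb: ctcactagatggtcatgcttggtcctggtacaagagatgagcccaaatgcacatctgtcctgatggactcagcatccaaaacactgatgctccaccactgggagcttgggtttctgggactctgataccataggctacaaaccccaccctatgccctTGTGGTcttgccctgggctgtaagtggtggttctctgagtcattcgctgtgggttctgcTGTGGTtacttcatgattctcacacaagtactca

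In these windows Gzma held 1 RUNX core, with its first base 50 bases before the start, Gzmb held 2 RUNX cores, and Gzmk held 1 T-box core 75 bases before the start and no RUNX core. RefSeq promoter windows matched 7 of the 8 genes, with 8 windows in all. The RUNX core was in 6 of the 8 windows, against 14% of all 32851 windows of the same length, and the T-box core in 3 of 8, against 3.33%. The motifs were picked after the sequences had been seen, and a match of letters is a description, not a binding site.

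Among the classes of blood, the summed transcripts of these genes were concentrated in NK cells, but not those of every gene. NK cells held 65.4% of the 3572 UMIs of the 8 genes in kept db/db cells and 73.7% of the 7271 in kept wt cells, and NK and T cells together held 97.6% and 95.8%, although they made up 9.58% of kept db/db cells and 14.3% of kept wt cells. By gene, the NK share ran from 16.7% (Gzmm) to 91.4% (Gzma) in db/db and from 5% (Gzmk) to 90.4% (Gzma) in wt. For Gzmm in wt, NK and T cells together held 53.85%. All values in CPM are UMIs per 1000000 UMIs of the class, and since 3′ counting takes each transcript once, levels of different genes are not divided by gene length. For Gzma, Gzmb, Prf1, Nkg7, Ctsw and Cst7 the order was the same in both libraries, with NK cells above CD8 T cells and CD8 T cells above other T cells, and no interval of neighbours in that order overlapped. Gzmm had the same order of values in both libraries and Gzmk in db/db, but not all of their intervals were apart, and in wt Gzmk was higher in CD8 T cells than in NK cells. Gzmm intervals of NK and CD8 T cells overlapped in both libraries, and so did those of Gzmk, while Gzmk in CD8 T cells was above that in other T cells in wt (11.5 CPM, interval 6.41 to 18.9, against 1.92 CPM, 0.396 to 5.61) and overlapped with it in db/db (14.4 CPM, 7.85 to 24.1, and 6.65 CPM, 2.44 to 14.5).

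**Figure D1:**
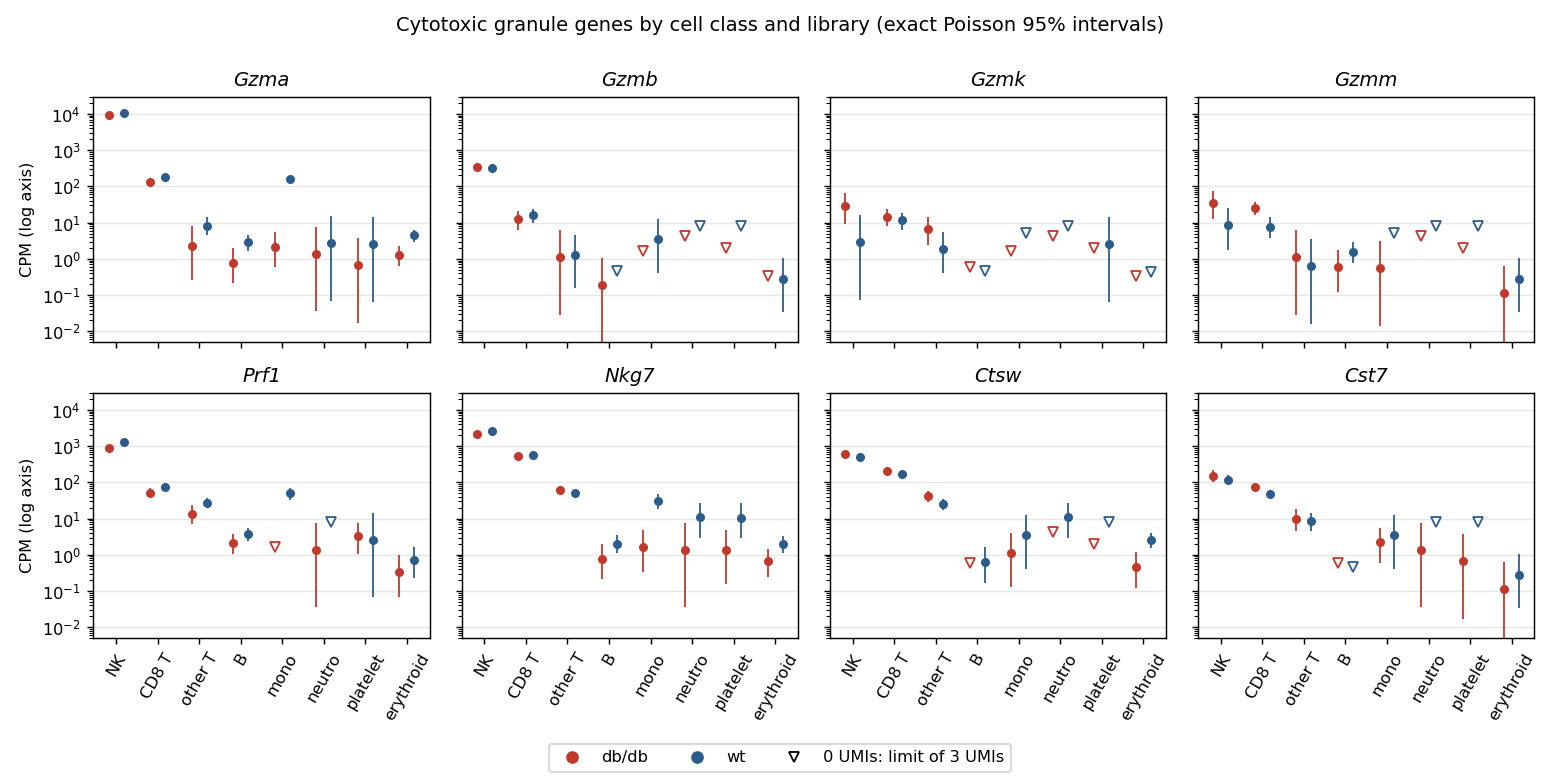
Level of each of the 8 genes in CPM, on a log axis, by cell class, with db/db left of wt in each pair. Points are the summed UMIs of the class, bars are exact Poisson 95% intervals, and open triangles mark the limit of 3 UMIs where 0 were counted. Gzma in NK cells stands at 9091 CPM in db/db and 10632 CPM in wt, and the wt monocyte points of Gzma, Prf1 and Nkg7 rest mostly on 1 barcode.

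Pooled over NK cells, the granule genes were within 1.5-fold between the genotypes wherever 20 UMIs allowed a comparison, with a lower sum in db/db. Summed over the 8 genes, db/db NK cells had 2337 UMIs or 13262 CPM and wt NK cells had 5361 UMIs or 15389 CPM, a ratio of 0.862 (interval 0.821 to 0.905). In single NK cells the median of this sum was 115 per 10000 UMIs of the cell in db/db and 166 in wt. Gzma, Prf1 and Nkg7 were lower in the db/db library with intervals that leave out 1, and Gzmb, Ctsw and Cst7 had intervals that include it. Of the 6 genes with at least 20 UMIs over both libraries, 0 were higher and 0 were lower in db/db by 1.5-fold on CPM plus 10, against 11.8% higher and 11.1% lower among all 3743 genes with 20 UMIs in these cells. Their median log2 ratio was -0.08, beside 0.04 for all 3743 genes.

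Gzma encodes granzyme A, a protease with trypsin-like specificity. It had 9091 CPM in db/db NK cells (1602 UMIs, interval 8651 to 9547) and 10632 CPM in wt NK cells (3704 UMIs, 10293 to 10980), a ratio of 0.855 (0.806 to 0.907). It was by far the most abundant of the 8, with 68.6% of their UMIs in db/db NK cells and 69.1% in wt NK cells, and it was detected in 54 of 56 db/db and 100 of 102 wt NK cells. Between single NK cells it varied widely, from 0 to 313 per 10000 UMIs of the cell in db/db (median 81.1) and from 0 to 334 in wt (median 118). The distributions of the libraries overlapped over nearly their whole range.

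Gzmb, granzyme B, which cleaves after aspartate and activates caspases, had 340.5 CPM in db/db NK cells and 321.5 CPM in wt NK cells (60 and 112 UMIs), a ratio of 1.06 (0.761 to 1.46). A UMI was found in 39.3% of db/db and 39.2% of wt NK cells, so most NK cells of either library had none. Gzmk, granzyme K, another trypsin-like protease, had 5 UMIs in 4 of 56 db/db NK cells and 1 UMI in 102 wt NK cells, which is 28.4 and 2.87 CPM and a ratio of 9.89 with an interval of 1.11 to 468. Gzmm, granzyme M, had 6 UMIs in db/db and 3 in wt NK cells, 34.1 and 8.61 CPM, a ratio of 3.95 (0.844 to 24.4). Both are too few for the minimum of 20 UMIs, and these ratios carry no call.

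Prf1, perforin, had 885 CPM in db/db NK cells (156 UMIs) and 1266 CPM in wt NK cells (441 UMIs). Its ratio of 0.699 (0.579 to 0.841) was the lowest among the 6 countable genes, with a log2 ratio of -0.51 that stays inside 1.5-fold. Perforin was seen in 78.6% of db/db and 86.3% of wt NK cells, with medians of 6.43 and 10.3 per 10000 UMIs. The call changed in some alternatives: with cells of several lineages left out, the log2 ratio was -0.71, and with haemoglobin left out of the denominator it was -0.61, both past 1.5-fold.

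Nkg7 had 2122 CPM in db/db NK cells and 2558 CPM in wt NK cells (374 and 891 UMIs), a ratio of 0.830 (0.734 to 0.937). It was found in 94.6% of db/db and 96.1% of wt NK cells. Ctsw had 607 CPM in db/db and 485 CPM in wt NK cells (107 and 169 UMIs), a ratio of 1.25 (0.973 to 1.60), and Cst7 had 153 and 115 CPM (27 and 40 UMIs), a ratio of 1.33 (0.788 to 2.23). Among the countable genes, Ctsw, Cst7 and Gzmb thus had ratios above 1, with intervals that include 1. Gzma, Prf1 and Nkg7 had ratios below 1, with intervals that leave it out.

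**Figure D2:**
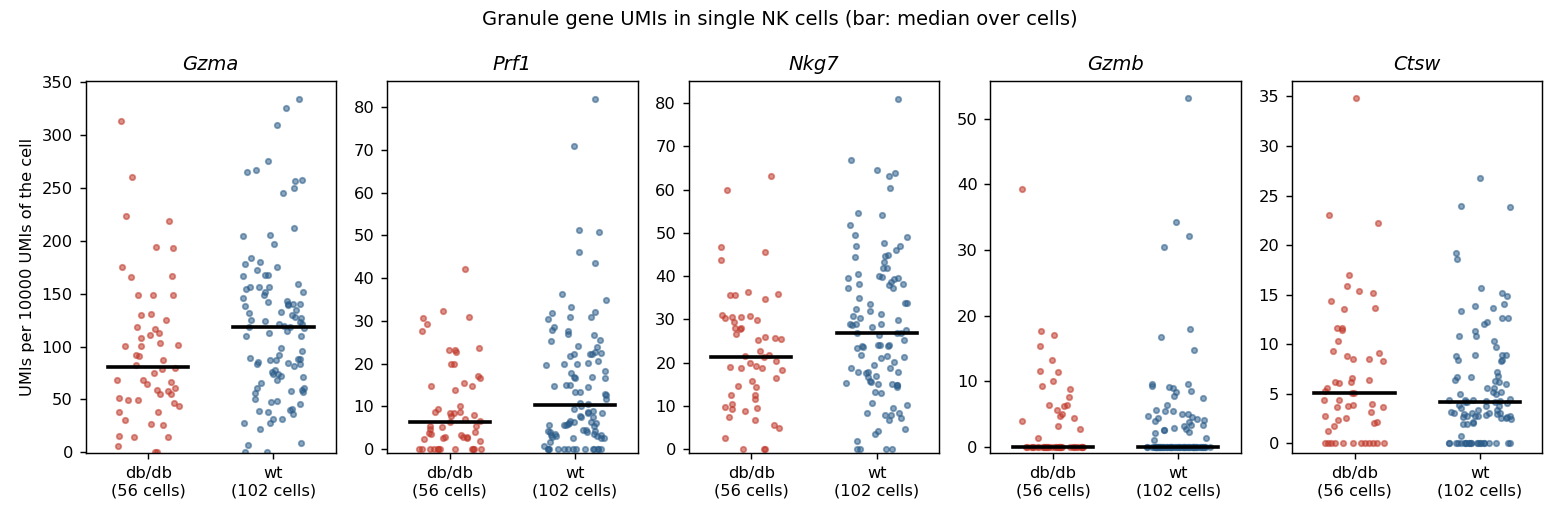
UMIs of 5 of the genes per 10000 UMIs of the cell, in each of 56 db/db and 102 wt NK cells, db/db on the left. Black bars are medians over cells. For Gzma the medians are 81.1 in db/db and 118 in wt, and the clouds of points overlap.

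Other RNA differed between the NK cells of the libraries. The 12 erythroid marker genes, of which 11 in db/db and 12 in wt were detected, summed to 81894 CPM in db/db NK cells and 142320 CPM in wt NK cells. The B cell list (11 of 11 genes in both) summed to 806 CPM in db/db and 1028 CPM in wt, the platelet list to 204 and 250 CPM, and the T cell list to 704 and 850 CPM. Gm42418, a locus that picks up ribosomal RNA fragments, took a median of 0.419% of UMIs in db/db NK cells and 1.98% in wt NK cells. The part of these differences in the ratios was not tested, but the summed ratio was 0.806 with haemoglobin left out of the denominator, and 0.750 without the 19 of 56 db/db and 42 of 102 wt NK cells that carried markers of several lineages.

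CD8 T cells carried the same genes in other proportions. Nkg7 took 51.0% of the UMIs of the 8 genes in db/db CD8 T cells and 52.4% in wt CD8 T cells, Ctsw 19.5% and 16.1%, and Gzma 12.4% and 16.6%. The 8 genes summed to 1052 CPM in db/db (1025 UMIs) and 1079 CPM in wt (1413 UMIs), a ratio of 0.974 (0.898 to 1.06). All 8 passed 20 UMIs. Of these, 1 was higher and 0 were lower in db/db by 1.5-fold, against 3.67% higher and 2.59% lower among all 7252 genes with 20 UMIs, and the median log2 ratio was 0.05, beside 0.04 for all.

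RNA of other cell types differed here too. The platelet list (10 of 10 genes detected in db/db and 7 of 10 in wt) summed to 199 CPM in db/db and 35.1 CPM in wt CD8 T cells, the B cell list (11 of 11 in both) to 836 and 518 CPM, and the erythroid list (12 of 12 in both) to 94825 and 120935 CPM. Their part in the ratios of this class was not tested.

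The gene past 1.5-fold was Gzmm. It had 24 UMIs in 15 of 224 db/db CD8 T cells and 10 UMIs in 7 of 265 wt CD8 T cells, which is 24.6 CPM (15.8 to 36.6) and 7.64 CPM (3.66 to 14.1), a ratio of 3.22 (1.49 to 7.55). The log2 ratio of 0.97 ran from 0.88 to 1.18 over 12 alternatives and stayed past 1.5-fold in all of them. Cst7 lay just inside the fold, at 75.9 CPM in db/db and 48.9 CPM in wt CD8 T cells (74 and 64 UMIs), a ratio of 1.55 (1.10 to 2.21) and a log2 ratio of 0.55 on CPM plus 10. It was past the fold in 1 of 12 alternatives.

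Gzma was lower in db/db CD8 T cells, at 130 CPM against 179.5 CPM in wt (127 and 235 UMIs), a ratio of 0.726 (0.580 to 0.905). These UMIs came from 14 of 224 db/db and 18 of 265 wt cells, and a single cell held 43 of the 127 in db/db and 40 of the 235 in wt. The log2 ratio of -0.43 ran from -0.85 to 0.01 over 12 alternatives and was past 1.5-fold in 4 of them. The value of 0.01 came with classes taken from the marker UMIs of each cell. Prf1 had 52.3 CPM in db/db and 76.4 CPM in wt CD8 T cells (51 and 100 UMIs), a ratio of 0.685 (0.479 to 0.969), and was seen in 16.1% of db/db and 28.3% of wt cells. Thinned to 1000 UMIs a cell, these shares were 5.02% in db/db and 6.44% in wt. The log2 ratio of Prf1 was past 1.5-fold in 2 of 12 alternatives.

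Nkg7, Ctsw, Gzmb and Gzmk had ratio intervals that include 1 in CD8 T cells. Nkg7 had 537 CPM in db/db and 566 CPM in wt, and a UMI in 74.6% of db/db and 77.7% of wt cells. Ctsw had 205 CPM in db/db and 173 CPM in wt, a ratio of 1.18 (0.974 to 1.44). Gzmb had 12 UMIs in db/db and 21 in wt, 12.3 and 16.0 CPM, and Gzmk had 14 and 15 UMIs, 14.4 and 11.5 CPM.

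**Figure D3:**
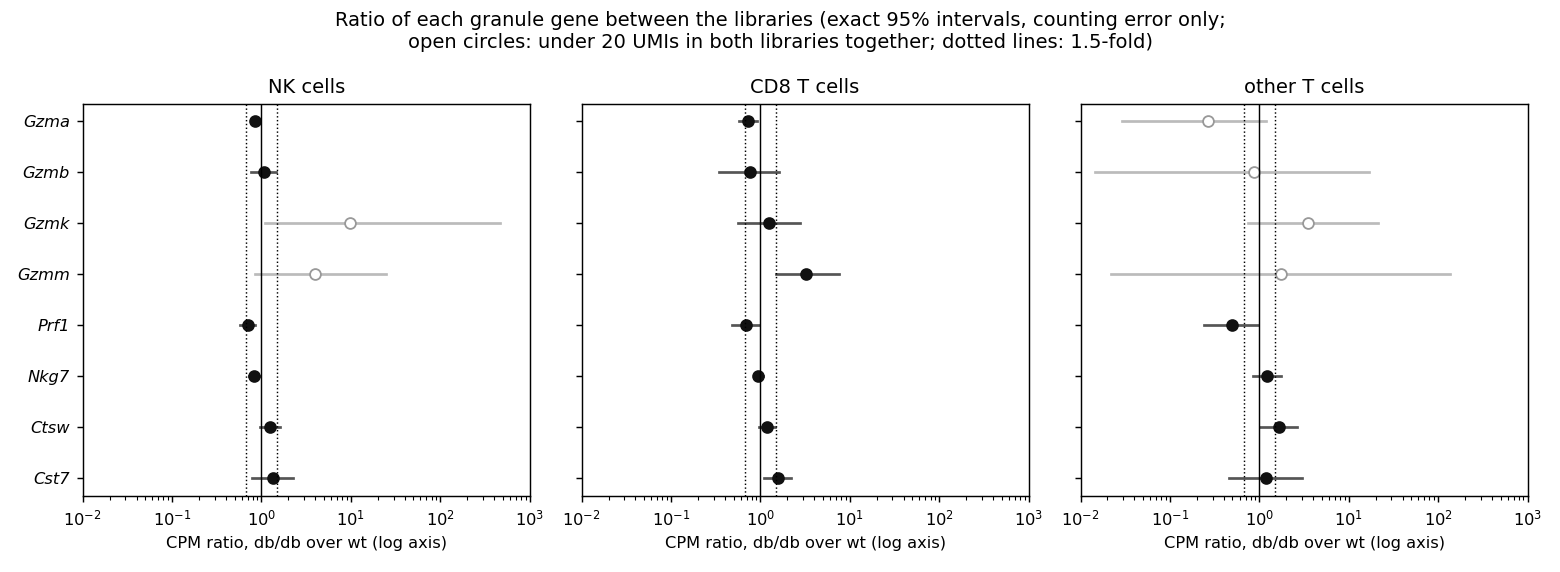
Ratio of CPM of db/db over wt for each gene, on a log axis, in NK cells, CD8 T cells and other T cells, with exact 95% intervals for counting error. Open circles have under 20 UMIs over both libraries and dotted lines mark 1.5-fold. In NK cells Gzma, Prf1 and Nkg7 lie left of 1, and in CD8 T cells Gzmm lies right of it at 3.22.

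Within the CD8 class Gzma, Gzmb and Gzmk were concentrated in a small group of cells, while Nkg7, Ctsw and Cst7 were spread over the class and Gzmm was found both in that group and outside it. Clustered again without the 8 genes, the class gave 7 subclusters, of which 1 was led by Gzma itself, although it was left out of the clustering, and by Ccl5, S100a6, Lgals1, Klrk1 and Zeb2, genes of effector and memory cells. This subcluster, called Ccl5-led here, held 34 of 224 db/db and 41 of 265 wt cells. Gzma had 824 CPM in the Ccl5-led cells of db/db and 1110 CPM in those of wt, and 13.2 and 39.5 CPM in the CD8 T cells outside them. The Ccl5-led cells held 116 of the 127 Gzma UMIs in db/db and 190 of 235 in wt, and 43 of the remaining wt UMIs were in a subcluster led by haemoglobin genes. Outside the Ccl5-led cells 5 genes passed 20 UMIs, of which Cst7 was higher (82.8 CPM in db/db and 44.8 CPM in wt; ratio 1.85, 1.27 to 2.71) and Gzma lower (0.334, 0.156 to 0.655) in db/db by 1.5-fold, against 5.11% higher and 2.84% lower among all 6716 genes. Without the subclusters led by haemoglobin, platelet and B cell genes, 124 db/db cells had 2 Gzma UMIs and 164 wt cells had 1. Gzmb and Gzmk each had 0 UMIs there in both libraries, which allows up to 6.28 CPM in db/db and 4.20 CPM in wt, while Gzmm had 4 UMIs there in db/db and 1 in wt. Of all Gzmm UMIs of the class, 12 of 24 in db/db and 4 of 10 in wt lay outside the Ccl5-led cells. In the set of 124 db/db and 164 wt cells without the mixed subclusters, Nkg7 was still at 477 CPM in db/db and 445.5 CPM in wt. Ctsw was at 220 and 176.5 CPM in that set, Cst7 at 96.2 and 60.2 CPM, and Prf1 at 33.5 and 57.4 CPM. This set was chosen after its values were seen.

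Among the Ccl5-led cells themselves, Nkg7 had 1115 CPM in db/db and 1448 CPM in wt, a ratio of 0.770 (0.626 to 0.944), and a UMI in 33 of 34 db/db and 38 of 41 wt cells. Gzma was patchier, with a UMI in 9 of 34 db/db and 14 of 41 wt cells and a ratio of 0.742 (0.584 to 0.940). Ctsw had 341 CPM in db/db and 199 CPM in wt, a ratio of 1.72 (1.08 to 2.75). Of the 6 genes with 20 UMIs in these cells, Ctsw was higher and Gzmb (63.9 CPM in db/db and 117 CPM in wt) and Prf1 (114 and 181 CPM) were lower by 1.5-fold, against 11.4% higher and 13.4% lower among all 2100 such genes. The intervals of Gzmb and Prf1 include 1 (0.219 to 1.26 and 0.321 to 1.18). Cst7, higher in db/db outside these cells, had 35.5 CPM in db/db and 75.9 CPM in wt within them (5 and 13 UMIs). Its ratio there was 0.468 (0.13 to 1.40), on too few UMIs for a call.

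**Figure D4:**
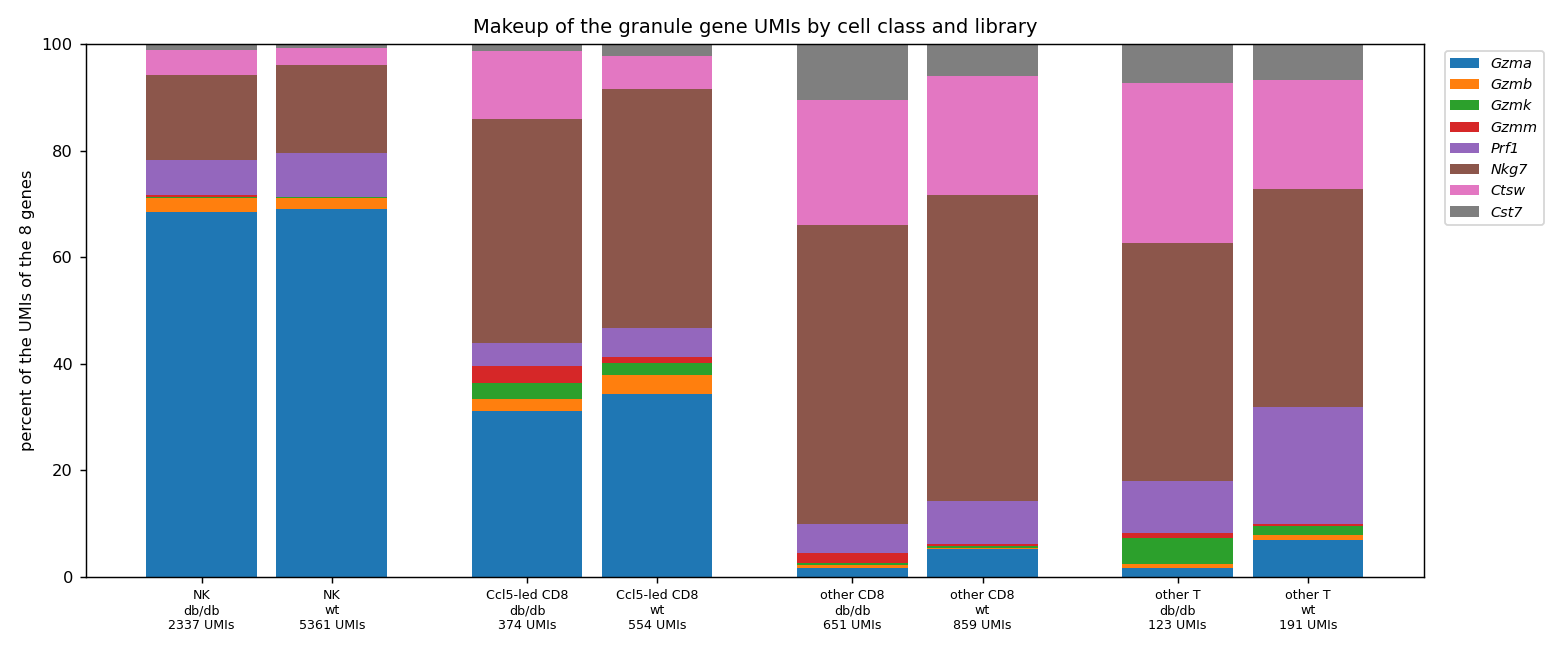
Makeup of the UMIs of the 8 genes, in percent of their sum, in NK cells, Ccl5-led CD8 T cells, other CD8 T cells and other T cells, with db/db left of wt. The number of UMIs behind each bar stands under it. Gzma takes 68.6% of the db/db and 69.1% of the wt bar in NK cells, and Nkg7 the largest share in the CD8 and other T bars.

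The class was also split by Ccl5 alone. A Ccl5 UMI was found in 99 of 224 db/db and 66 of 265 wt CD8 T cells. Of the Gzma UMIs, 126 of 127 in db/db and 233 of 235 in wt were in cells with Ccl5, and so were all 12 and 21 of Gzmb and all 14 and 15 of Gzmk. Gzma in the cells with Ccl5 was at 253 CPM in db/db and 751 CPM in wt, with more of the db/db cells in that set. Ccl5 itself had 2822 CPM in db/db and 1912 CPM in wt CD8 T cells, a ratio of 1.48 (1.40 to 1.56). The sets were thus split by a gene that differed between the libraries, and its part in the Gzma values was not tested.

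Other T cells had few transcripts of these genes. The 8 genes summed to 136 CPM in db/db (123 UMIs) and 122 CPM in wt (191 UMIs), a ratio of 1.12 (0.883 to 1.41), and 82.0% of db/db and 78.5% of wt cells had a UMI of none of them. In these cells the erythroid list (12 of 12 genes in both) summed to 313774 CPM in db/db and 180908 CPM in wt, a higher level in db/db where NK cells had a lower one, and the platelet list (10 and 9 of 10 genes) to 368 and 79.3 CPM. Their part in the ratio was not tested. The summed ratio was not stable against the choice of cells, at 0.645 with classes from marker UMIs and 1.73 without cells of several lineages. Only Prf1, Nkg7, Ctsw and Cst7 passed 20 UMIs. Prf1 was lower in db/db by 1.5-fold, with 12 UMIs (13.3 CPM) against 42 (26.9 CPM) in wt, a ratio of 0.495 (0.237 to 0.958), so that 0 of 4 were higher and 1 was lower, against 2% higher and 7.83% lower among all 7406 genes. The log2 ratio of Prf1 was -0.66, the median of all genes in this class was -0.15, and the call was lost in 6 of 12 alternatives (from -0.54 to -0.40 in those). Nkg7 had 61.0 CPM in db/db and 49.9 CPM in wt, but 22 of 55 UMIs in db/db and 37 of 78 in wt came from a single cell. Ctsw had 41.0 CPM in db/db and 24.9 CPM in wt, a ratio of 1.65 (1.02 to 2.65) and a log2 ratio of 0.55.

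B cells, which do not make granules, gave the background. In 2133 db/db and 2618 wt B cells, with a median of 2190 and 2265 UMIs, Gzma had a UMI in 0.188% of db/db and 0.611% of wt cells, Prf1 in 0.469% and 0.879%, and Nkg7 in 0.188% and 0.458%. The shares of other T cells with Gzma, 0.656% in db/db and 1.33% in wt, had intervals that overlap with these, and so did Gzmb and Gzmm. By this measure these genes were not set apart from background in other T cells, but overlap does not show that they equal it. In wt a single other T cell held 8 of the 13 Gzma UMIs of its class, where no wt B cell had more than 3. Prf1 in other T cells, seen in 3.93% of db/db and 8.85% of wt cells, was above the background of B cells. In monocytes the 8 genes had 14 UMIs in 368 db/db cells and 146 UMIs in 125 wt cells. A single wt barcode held 138 of the 146, among them 92 of Gzma, 29 of Prf1 and 13 of Nkg7, together with 18 UMIs of NK marker genes, and without it wt monocytes had 8 UMIs or 13.9 CPM. In basophil-like cells, 9 in db/db and 6 in wt, Nkg7 had 5 UMIs and Cst7 2 UMIs in db/db and 0 in wt, which allows up to 341 CPM there.

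Single NK cells expressed several of the genes at once. The median number of the 8 genes with a UMI was 5 in db/db and 4 in wt NK cells, and 45 of 56 db/db and 86 of 102 wt NK cells had 4 or more. CD8 T cells had a median of 2 in both libraries, with 4 or more in 8.48% of db/db and 8.68% of wt cells. Thinned to 1000 UMIs a cell, 36.4% of db/db and 42.9% of wt NK cells had 4 or more, and 1.83% and 1.52% of CD8 T cells.

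**Figure D5:**
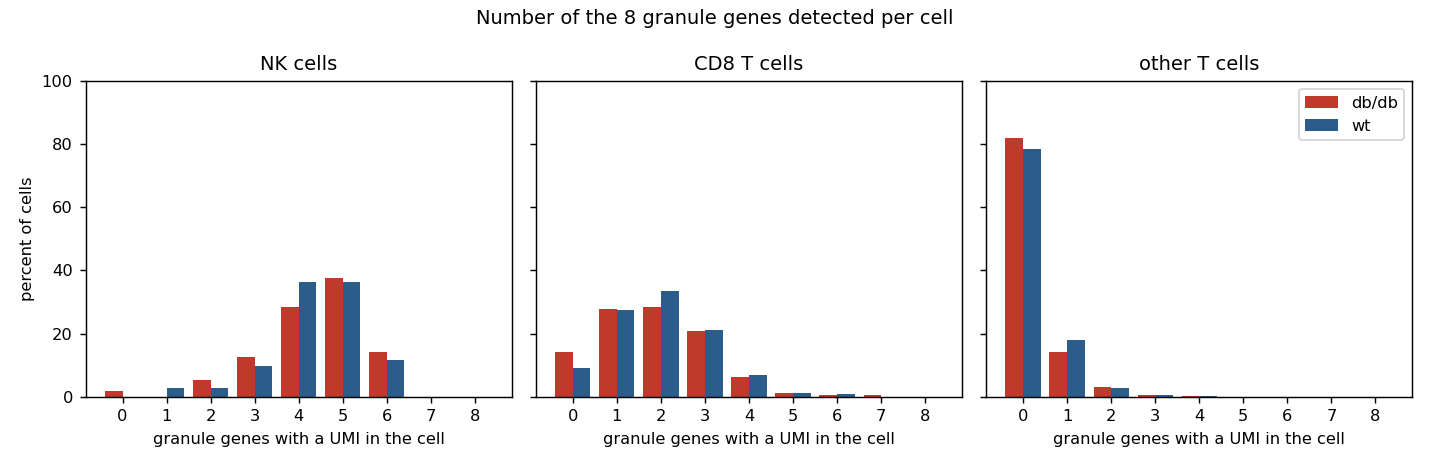
Percent of cells by the number of the 8 genes with a UMI in the cell, for NK cells, CD8 T cells and other T cells, db/db left of wt in each pair. NK cells centre on 4 and 5 genes, CD8 T cells on 1 to 3, and 82.0% of db/db and 78.5% of wt other T cells have none.

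Both Gzmb and Prf1 were seen in 20 of 56 db/db and 36 of 102 wt NK cells. Of the NK cells with a Gzmb UMI, 20 of 22 in db/db and 36 of 40 in wt also had Prf1, beside 24 of 34 and 52 of 62 of the NK cells without Gzmb. Gzmk and Gzmb were not seen in the same NK cell. With 4 Gzmk cells in db/db and 1 in wt, this cannot show whether these genes exclude each other. In the Ccl5-led CD8 T cells they did meet: 3 of 6 db/db and 5 of 8 wt cells with Gzmb also had Gzmk, against 2 of 28 and 2 of 33 of the cells without Gzmb. These counts depend on the depth of each cell, which was not matched between the cells with and without a gene.

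The other genes of the granule pathway were read from lists chosen by function. The 6 other mouse granzyme genes (Gzmc, Gzmd, Gzme, Gzmf, Gzmg and Gzmn) had 0 UMIs in NK cells, CD8 T cells and other T cells of both libraries. Of 9 genes of the granule matrix and of granzyme processing, 6 passed 20 UMIs in NK cells with 0 past 1.5-fold, among them Srgn, the proteoglycan that packs granzymes (584.5 CPM in db/db and 591 CPM in wt), and Ctsc, the cathepsin that activates them (96.5 and 103 CPM). Of 11 genes of granule transport and fusion, 8 passed in NK cells, with 2 higher and 1 lower, and of 5 granzyme inhibitors 3 passed with 1 higher, against 11.8% higher and 11.1% lower among all genes. None of those 4 had an interval that leaves out 1. The median log2 ratios of the 3 lists in NK cells were -0.05, -0.24 and 0.47, beside 0.04 for all genes. In CD8 T cells, Igf2r, the receptor that carries granzymes to lysosomes, was higher in db/db (47.2 CPM, against 26.7 CPM in wt; ratio 1.77, 1.11 to 2.82), and so was Arl8b, a GTPase that moves lysosomes along microtubules (32.8 and 16.8 CPM; 1.95, 1.10 to 3.53), the 1 of 8 and 1 of 9 countable genes of these lists past the fold, against 3.67% higher among all genes. The list medians in CD8 T cells were 0.12 for matrix and processing, 0.07 for transport and 0.16 for the inhibitors, of which 0 of 4 passed the fold. In other T cells 0 of 8 matrix genes and 0 of 10 transport genes passed it, and 1 of 2 inhibitors was higher. That inhibitor, Serpinb6a, had a ratio interval of 0.981 to 3.77, which includes 1. Among all genes of other T cells 2% were higher and 7.83% lower.

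Among effector genes outside the granule, 4 of the 8 countable ones were lower in db/db NK cells and 0 were higher, against 11.1% lower and 11.8% higher among all genes, with a list median of -0.58. Ccl4, a chemokine gene, had 119 CPM in db/db NK cells and 738 CPM in wt NK cells (21 and 257 UMIs), a ratio of 0.162 (0.0983 to 0.252). Its relative Ccl3 had 79.5 CPM in db/db and 319 CPM in wt NK cells (14 and 111 UMIs), a ratio of 0.249 (0.132 to 0.436). Xcl1, which attracts XCR1-bearing dendritic cells, had 284 and 479 CPM, a ratio of 0.592 (0.423 to 0.816), but a log2 ratio of -0.17 without cells of several lineages in place of -0.74. Ifng, interferon gamma, had 68.1 CPM in db/db and 112 CPM in wt, and its ratio interval of 0.290 to 1.19 includes 1.

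Of 8 countable regulators of the cytotoxic programme in NK cells 1 was higher and 3 were lower, against 11.8% and 11.1% among all genes, and the list median was 0.20. The higher one had a ratio interval that includes 1. Id2, a regulator of NK development, had 1226 CPM in db/db and 898.5 CPM in wt, a ratio of 1.36 (1.14 to 1.63) inside 1.5-fold. The T-box factor genes Tbx21 and Eomes were among the lower: Tbx21 had 68.1 CPM in db/db and 175 CPM in wt NK cells (12 and 61 UMIs; ratio 0.389, 0.191 to 0.730), and Eomes 216 and 350 CPM (38 and 122 UMIs; 0.616, 0.416 to 0.893). Zeb2, a factor of terminal NK maturation, had 346 CPM in db/db and 649 CPM in wt (0.534, 0.395 to 0.711). These 3 stayed past 1.5-fold in all 12 alternatives, as did Ccl3 and Ccl4.

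In CD8 T cells, Ccl4 was higher, with 38.0 CPM in db/db and 5.35 CPM in wt (37 and 7 UMIs; ratio 7.10, 3.12 to 18.9). The difference of its ratio between NK and CD8 T cells was not tested. Fasl, the death ligand, had 21.6 CPM in db/db and 8.40 CPM in wt (2.56, 1.18 to 5.89), and Stat4, a transducer of interleukin-12 signals, 125 and 79.4 CPM (1.58, 1.20 to 2.07), which made 2 of 7 countable effector genes (list median 0.49) and 1 of 7 regulators (-0.04) higher. Among all genes of CD8 T cells 3.67% were higher and 2.59% lower. Stat4 lay close to the fold, with a log2 ratio of 0.60, and stayed past it in 3 of 12 alternatives, where Fasl, Igf2r and Arl8b each stayed past it in 11. The 1 lower effector gene was Xcl1, at 12.3 CPM in db/db and 32.1 CPM in wt (0.384, 0.184 to 0.743), whose log2 ratio of -0.92 turned to 0.44 without cells of several lineages. In other T cells the chemokine gene Ccl5 was higher, at 331 CPM in db/db and 150 CPM in wt (2.21, 1.85 to 2.63), but with classes from marker UMIs its log2 ratio of 1.09 turned to -0.09. Zeb2, 1 of 5 countable regulators, was lower there, at 6.65 CPM in db/db and 29.4 CPM in wt (0.226, 0.0789 to 0.531). Of the 4 countable effector genes there, 1 was higher, Ccl5, and 1 lower, Tnfsf10, whose ratio interval (0.117 to 1.07) includes 1. The shares among all genes of other T cells were 2% higher and 7.83% lower.

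The genes most alike in distribution were found by correlation of log2(CPM plus 10) over 16 sums of 8 classes and 2 libraries, among 10710 genes, a description in which the sums share libraries and depth. The mean of the 8 genes was closest to Gm33104 (Pearson r 0.984), Gm14029 (0.983), Eomes (0.981), Ifitm10 (0.981) and Cd160 (0.979). Gene by gene, Gzma was closest to Pogk (0.978), Gzmb to Serpinb6b (0.995), which is also a granzyme inhibitor of the lists, and Prf1 to Klrg1 (0.980). Nkg7, Ctsw and Cst7 were each closest to Il2rb, the interleukin-2 receptor beta chain (0.979, 0.985 and 0.984). Gzmk was closest to Cxcr3, a chemokine receptor gene (0.946), and Gzmm to Gm14029 (0.925). Among the 8, Nkg7 and Ctsw were most alike (0.99), followed at 0.98 by Gzma with Prf1, Nkg7 with Cst7 and Ctsw with Cst7, while the chromosomal neighbours Gzma and Gzmk had 0.65. The sums include the wt monocytes, in which 1 barcode held most of the Gzma and Prf1 UMIs. Without that barcode, Gzma was closest to Klrc1 (0.994) with Pogk at 0.958, the mean of the 8 was closest to Ifitm10 (0.992), and Gzma and Gzmk had 0.70. The closest gene of each of the other 7 genes was the same without it.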

How the data were processed

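Per the submitters' processing notes, the raw counts of the authors were made with Cell Ranger 3.0.2 on mm10, and the deposited matrices hold them as whole UMI counts per gene and barcode. Annotation and cell calling are not given in the sources used here. The analysis used scanpy 1.11.5 and scipy 1.17.1 under Python 3.11.15. The 8 genes and the lists were chosen with earlier results of these data known.

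Kept cells were scaled to 10000 UMIs, log-transformed and clustered together without the 8 genes (2000 variable genes, 30 components, 15 neighbours, Leiden resolution 1). A cluster was named where 3 markers of a class were among its 50 leading genes, and the names are rebuilt, since no cell annotation was used. No doublet caller was run. Instead, cells with at least 2 UMIs of another lineage's defining markers or over 10% haemoglobin were left out in an alternative. CD8 T cells were clustered again with 1500 variable genes and 20 components.

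UMIs were summed per class and library, with exact Poisson intervals for CPM, Clopper-Pearson intervals for shares and exact conditional binomial intervals for ratios. No test was possible with 1 library per group. A gene was counted as higher or lower at 1.5-fold on CPM plus 10 (0.58 on the log2 scale) with 20 UMIs over both libraries (a gene that reaches this through 1 library alone has to differ), and where no UMI was counted the limit is that of 3 UMIs. Named genes beyond the 8 were those of the lists past that fold with a ratio interval that leaves out 1, and those with the highest correlations. Srgn, Ctsc, Ifng, Id2 and Klrc1 were named after their values were seen, and so was Ccl5 in NK cells and CD8 T cells. The procedure was run on simulated class sums drawn with counting error alone, which cannot show how it behaves with differences between cells, mice or libraries. Alternatives used edgeR 4.0.16 (TMM) and DESeq2 1.42.0 size factors in R 4.3.3, other denominators, cell classes and filters.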

Additional observations from a re-analysis of the deposited data

Results flagged for a closer look

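Ccl4, a chemokine gene of the effector list, differed between the genotypes in opposite directions in NK cells and CD8 T cells. In NK cells the ratio of db/db over wt was 0.162, and in CD8 T cells it was 7.10. The difference between the classes was not tested.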

How the results depend on the processing

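The summed ratio of db/db over wt stayed within its counting interval in 27 of 36 comparisons of 3 classes with 12 alternatives. In NK cells it was below 1 in all 12, at 0.806 with haemoglobin left out of the denominator, 0.750 without cells of several lineages and 0.803 with every cell weighted alike. In CD8 T cells it was 1.07 with classes from marker UMIs and 0.889 with cells weighted alike. In other T cells it was 1.52 with the 8 genes kept for clustering, 0.645 with classes from marker UMIs, 1.73 without cells of several lineages and 1.41 with at least 500 genes a barcode. The cause was not tested. Of 288 values of single genes 275 stayed in their interval, 13 moved and 0 of the called ones reversed. In NK cells Gzma, Prf1 and Nkg7 were lower and Gzmk, Gzmm, Ctsw and Cst7 higher in db/db in all 12. Alternatives added after the data were seen turned Xcl1 in CD8 T cells to 0.44 (log2, without cells of several lineages), Ccl5 in other T cells to -0.09 (classes from marker UMIs), and Gzma in CD8 T cells outside the Ccl5-led subcluster from -1.10 to 0.32, on 2 and 1 UMIs, without the subclusters of mixed lineage. Thinning moved 34 of 48 shares of cells out of their interval. With no minimum of UMIs, 19.2% of genes in NK cells were higher and 16.7% lower in db/db, against 11.8% and 11.1%. No paired analysis was possible because each group has 1 library and no test was made. Gzmk and Gzmm fell short of 20 UMIs over both libraries in NK cells, so their ratios there carry no call.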
